A study of Mus musculus with 24 samples.

Results

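The choroid plexus epithelium was followed in these brain samples through 10 of its genes, *Ttr*, *Folr1*, *Kcnj13*, *Slc4a5*, *Kcne2*, *Clic6*, *Kl*, *Aqp1*, *Otx2* and *Cldn2*. The genes were chosen by name as known products of this epithelium, and with earlier results of these data known. The rows of all 10 were found among the 25793 gene symbols counted in 24 RNA-seq libraries. The libraries were made from dissected cerebellum (CB) and hippocampus (HC) of male mice. Each region was taken at postnatal day 14 (P14) and postnatal day 35 (P35) from WT mice and from 16GsoT/T mice, with 3 mice in each of 8 groups. 16GsoT/T mice are homozygous for a reciprocal translocation between chromosomes 5 and 8, with the chromosome 5 breakpoint between *Galnt17* and *Auts2*. The mutants were the offspring of homozygous parents. The labels give C57BL/6 as the background of every sample, whereas the names of the WT mice other than those of the P14 CB carry the term B6C3, and the study's methods describe a mixed B6C3 background for both genotypes.

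The choroid plexus is a folded sheet of epithelium over vessels and stroma that hangs in the ventricles of the brain and secretes cerebrospinal fluid. It lies next to, and is no part of, the regions dissected here: one plexus attaches along the fimbria of the HC in the lateral ventricle, another lies under the CB in the fourth ventricle. Its cells move ions and water from blood to ventricle, seal the route between cells with tight junctions, and release carrier proteins such as transthyretin into the fluid. In whole tissue, more epithelial cells in a sample and more RNA per epithelial cell cannot be told apart.

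The libraries held 2563968 to 40564789 reads on genes, with the P14 CB libraries the deepest and the P35 HC libraries the shallowest. Within groups, no pair of libraries had equal counts in more than 8754 of the 25793 genes. The share of reads that fell on genes was 64.8 to 68.1% in the P14 CB and 40.7 to 42.3% in the P14 HC, so that it goes with region at that age. In the P35 CB it was 37.6 to 37.7% in WT and 42.3 to 42.4% in 16GsoT/T. In the P35 HC, the labels give the 3 mutants and WT N10 single index sequences and one run of library numbers, and WT W481 and W483 dual index sequences and another run. These 2 sets are taken here as library batches, a name the labels do not use. In the P14 HC, each genotype had a sequencing lane of its own, and an effect of the lane cannot be told apart from one of genotype. Levels are given as counts per 1000000 reads on genes (CPM) after TMM scaling over all 24 libraries. A member at 0 counts could still be present at up to 3 counts, which is 0.0914 CPM in P14 CB library 5, 0.476 CPM in P35 CB library M27 and 0.784 CPM in P35 HC library N10. These limits cover counting error only. Of *Kcnj13*, 49.1% of the exon bases lie opposite exons of *Gigyf2* in GENCODE vM1, and the strand setting behind the counts is not given in the sources used here, so reads of the 2 genes over these bases may not have been told apart.

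The DNA just before the start of some members is shown as background, and its part in the levels of these genes was not tested. RefSeq promoter windows (GRCm38.p6 table) were at hand for 7 of the 10 members, *Kcnj13*, *Kl*, *Aqp1*, *Slc4a5*, *Otx2*, *Kcne2* and *Cldn2*, and *Ttr*, *Folr1* and *Clic6* had no window. The 250 bases before each start were placed on NCBIM37, the build of the count tables, by exact match. Capitals mark TATAAA, the core of the TATA box, read on the strand of the gene. The windows below hold no annotated exon base. The first lies on chromosome 1 from 89291305 to 89291554 on the minus strand, the second on chromosome X from 136335097 to 136335346 on the plus strand and the third on chromosome 16 from 92292384 to 92292633 on the plus strand.
Kcnj13: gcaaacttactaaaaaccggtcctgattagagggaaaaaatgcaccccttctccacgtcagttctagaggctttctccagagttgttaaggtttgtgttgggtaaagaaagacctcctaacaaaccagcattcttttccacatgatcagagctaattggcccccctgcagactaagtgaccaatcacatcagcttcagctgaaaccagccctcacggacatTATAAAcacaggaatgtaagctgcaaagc
Cldn2: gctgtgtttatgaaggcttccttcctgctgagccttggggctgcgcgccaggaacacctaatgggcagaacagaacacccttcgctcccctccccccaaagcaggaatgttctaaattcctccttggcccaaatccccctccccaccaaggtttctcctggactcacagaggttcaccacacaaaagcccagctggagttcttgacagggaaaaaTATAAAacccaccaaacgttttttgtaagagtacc
Kcne2: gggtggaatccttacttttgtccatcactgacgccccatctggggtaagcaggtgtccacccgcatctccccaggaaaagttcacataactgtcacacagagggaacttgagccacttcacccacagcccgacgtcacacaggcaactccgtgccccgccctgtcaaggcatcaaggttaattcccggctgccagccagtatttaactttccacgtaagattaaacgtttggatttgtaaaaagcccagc
TATAAA began 29 bases before the start of *Kcnj13* and 35 bases before the start of *Cldn2*, and was not in the window of *Kcne2*. Over both strands (TATAAA or TTTATA) it was in 4 of the 11 windows used for these 7 members and in 12.4% of all 32851 windows. *Otx2* and *Kcne2* each had more than 1 of these windows. The other matches were farther off, 192 bases before a start of *Otx2* and, as TTTATA, 127 bases before a start of *Slc4a5*. The latter window holds 103 exon bases. The letters TAATCC, which OTX proteins bind, or their complement GGATTA were in 1 of the 11 windows, one of *Otx2* itself, and in 6.25% of all windows.

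*Ttr*, which encodes the thyroxine carrier transthyretin, varied widely between libraries. Over the 24 libraries its level ran from 0.548 to 1952 CPM with a median of 271 CPM, a 3560-fold range. In the P14 CB it was 622, 193 and 2.04 CPM in WT mice 1, 2 and 3, and 648, 0.548 and 217 CPM in 16GsoT/T mice 4, 5 and 6. One of the 3 libraries of each genotype was therefore nearly without *Ttr*, and the other libraries of both genotypes lay in one range.
In the P35 CB the level was 6.35, 1109 and 1952 CPM in WT mice M27, M28 and M29 and 108, 321 and 240 CPM in 16GsoT/T mice C19, C20 and C21. The mutant values all lay inside the WT range, which was set by M27 at its low end. In the P14 HC the level was 403, 864 and 96.1 CPM in WT mice N4, N5 and N6 and 1006, 1714 and 75.1 CPM in 16GsoT/T mice A13, A14 and A18. The groups overlapped here as well, with A18 the lowest of the 6.
In the P35 HC the level was 65.3, 52.7 and 53.8 CPM in WT mice N10, W481 and W483 and 1658, 301 and 1311 CPM in 16GsoT/T mice B10, B11 and B12. This was the one region and age in which the genotypes did not overlap in *Ttr*. The 3 libraries under 10 CPM, numbers 3 and 5 of the P14 CB and M27 of the P35 CB, stood apart from the other 21, since the next level up, in W481, was 8.30 times that of M27.

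**Figure D1:**
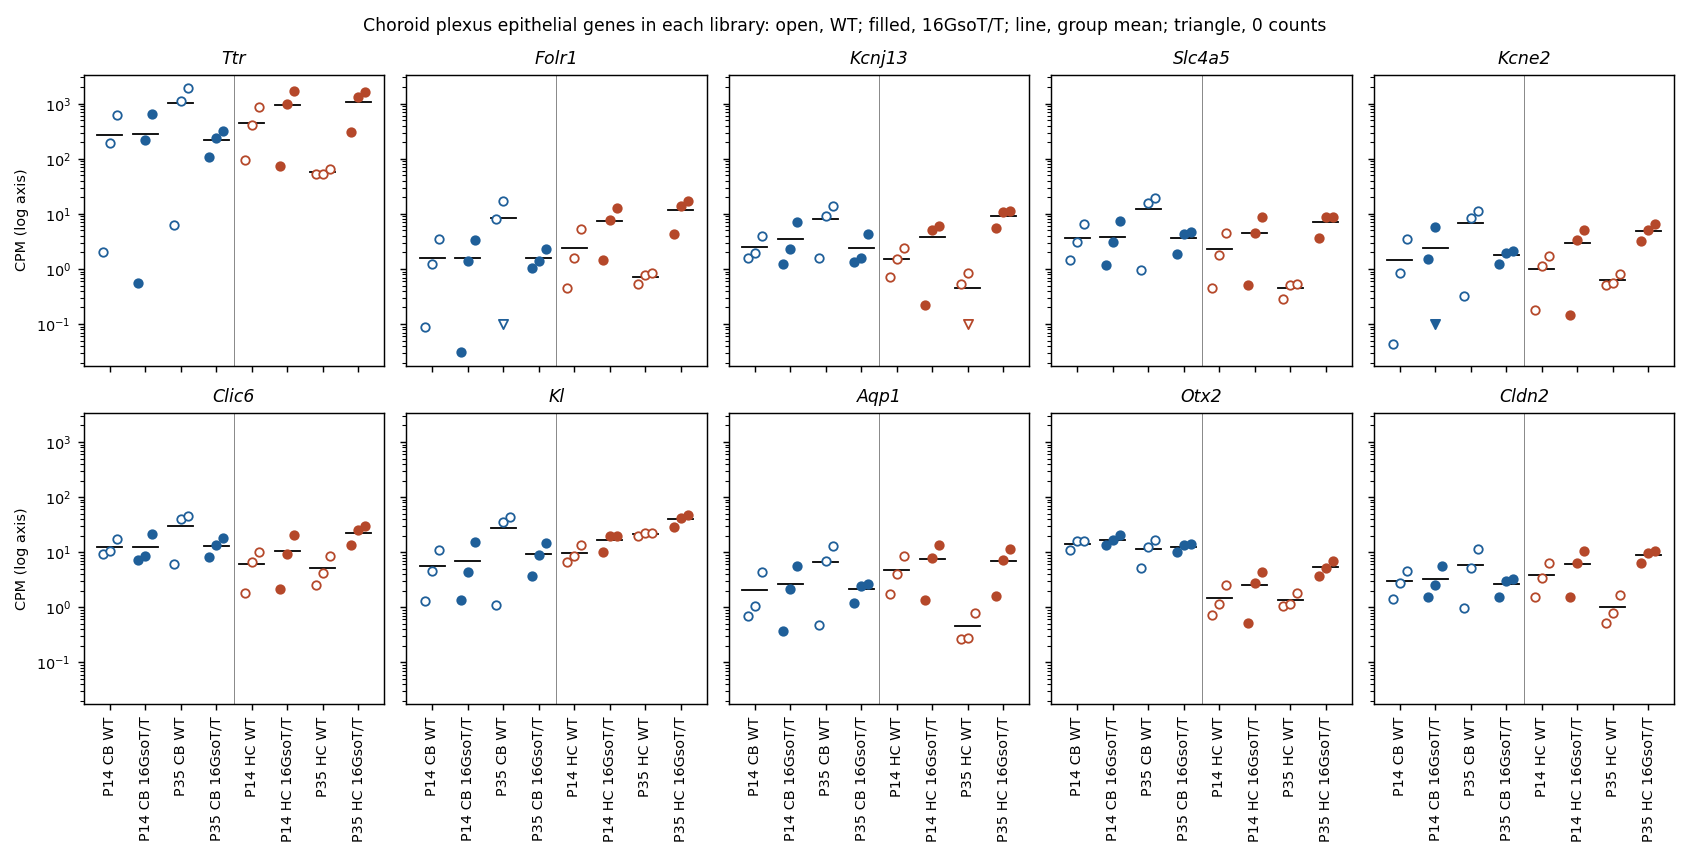
Level of each of the 10 genes in CPM (log axis) in each library, with the 8 groups along the x axis and the CB on the left of the grey line. Open points are WT, filled points 16GsoT/T, lines the means of 3 libraries and triangles libraries with 0 counts. In *Ttr* the group means run from 57.3 CPM in the WT P35 HC to 1090 CPM in the 16GsoT/T P35 HC, and in most CB groups 1 library lies far under the others.

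Pooled over the 8 groups, nearly all of these genes were among the most variable in the data between mice of one group. The standard deviation of log2 CPM within groups, pooled over the 8 groups, was 3.12 for *Ttr*, the third largest of 15955 genes, against a median of 0.187 over all genes. *Folr1*, the folate receptor of this epithelium, followed with 1.91 (rank 18) and *Kcne2*, a potassium channel subunit, with 1.80 (rank 23). In all, 9 of the 10 members lay in the top percent. The exception was *Otx2*, a homeobox transcription factor that the epithelium needs, with 0.71 (rank 888). The spread differed between groups. For *Ttr* it was 4.30 in the WT P14 CB, 5.30 in the 16GsoT/T P14 CB and 4.54 in the WT P35 CB, rank 1 in each. In the 16GsoT/T P35 CB it was 0.81 (rank 777). In the WT P35 HC it was 0.17 for *Ttr* (rank 9503) and 0.13 for *Kl* (rank 11545).

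Per length of annotated exons, *Ttr* stood far above the rest. Its median over the 24 libraries was 222 CPM per kb of exon, followed by *Kl* with 2.74, *Clic6* with 2.50, *Otx2* with 1.80 and *Kcnj13* with 1.68. The other members had medians between 0.572 (*Slc4a5*) and 0.939 (*Cldn2*). Below *Ttr* the ranges of the members overlapped, so this order of neighbours does not hold in every library.

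The other members followed *Ttr* from mouse to mouse. Likeness was measured as Pearson's r of log2 CPM over the 24 libraries after subtraction of each group's mean, so that no difference between regions, ages or genotypes enters it. It is given as a description, without a test, since all genes of a library share one dissection and one depth. *Kcne2* was the closest to *Ttr* of 15954 other genes, with r = 0.96, and *Folr1* the third, with r = 0.94. Both encode proteins of the epithelial surface, the first in potassium channels and the second in the uptake of folate. *Kl* (klotho, a co-receptor that is also shed into the fluid) ranked 5 with r = 0.90, and *Aqp1* (the water channel of the side facing the ventricle) ranked 9 with r = 0.88. *Slc4a5*, a sodium bicarbonate transporter, ranked 13 with r = 0.86, and *Cldn2*, a claudin of tight junctions that let ions pass, ranked 21 with r = 0.82. *Kcnj13*, the potassium channel Kir7.1, ranked 69 with r = 0.70, *Clic6*, a chloride channel protein, ranked 77 with r = 0.68 and *Otx2* ranked 96 with r = 0.64. Without the libraries farthest from the median of *Ttr*, number 5 and M27, r lay between 0.61 for *Kcnj13* and 0.93 for *Folr1*. By ranks (Spearman's rho), the values were 0.71 for *Clic6* to 0.95 for *Folr1*.

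Within the 12 libraries of one region, all 9 genes were close to *Ttr*. In the CB r ran from 0.72 (*Clic6*) to 0.98 (*Kcne2*), and in the HC from 0.78 (*Kcnj13*) to 0.98 (*Slc4a5*). The slopes differed between the regions, over unlike ranges of *Ttr*. Per doubling of *Ttr*, *Kcne2* rose by 0.52 on the log2 scale in the CB and by 0.80 in the HC, and *Slc4a5* rose by 0.32 in the CB and by 0.79 in the HC. The slope of *Otx2* was 0.097 in the CB and 0.47 in the HC, whereas that of *Kl* was 0.42 in the CB and 0.25 in the HC. In the CB, *Ttr* was under 10 CPM in 3 libraries, where *Folr1* and *Kcne2* were at 0 to 2 counts. In the HC, the lowest level of *Ttr* was 52.7 CPM. The part of these CB libraries in the slopes was not tested, and neither was the difference between slopes.

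**Figure D2:**
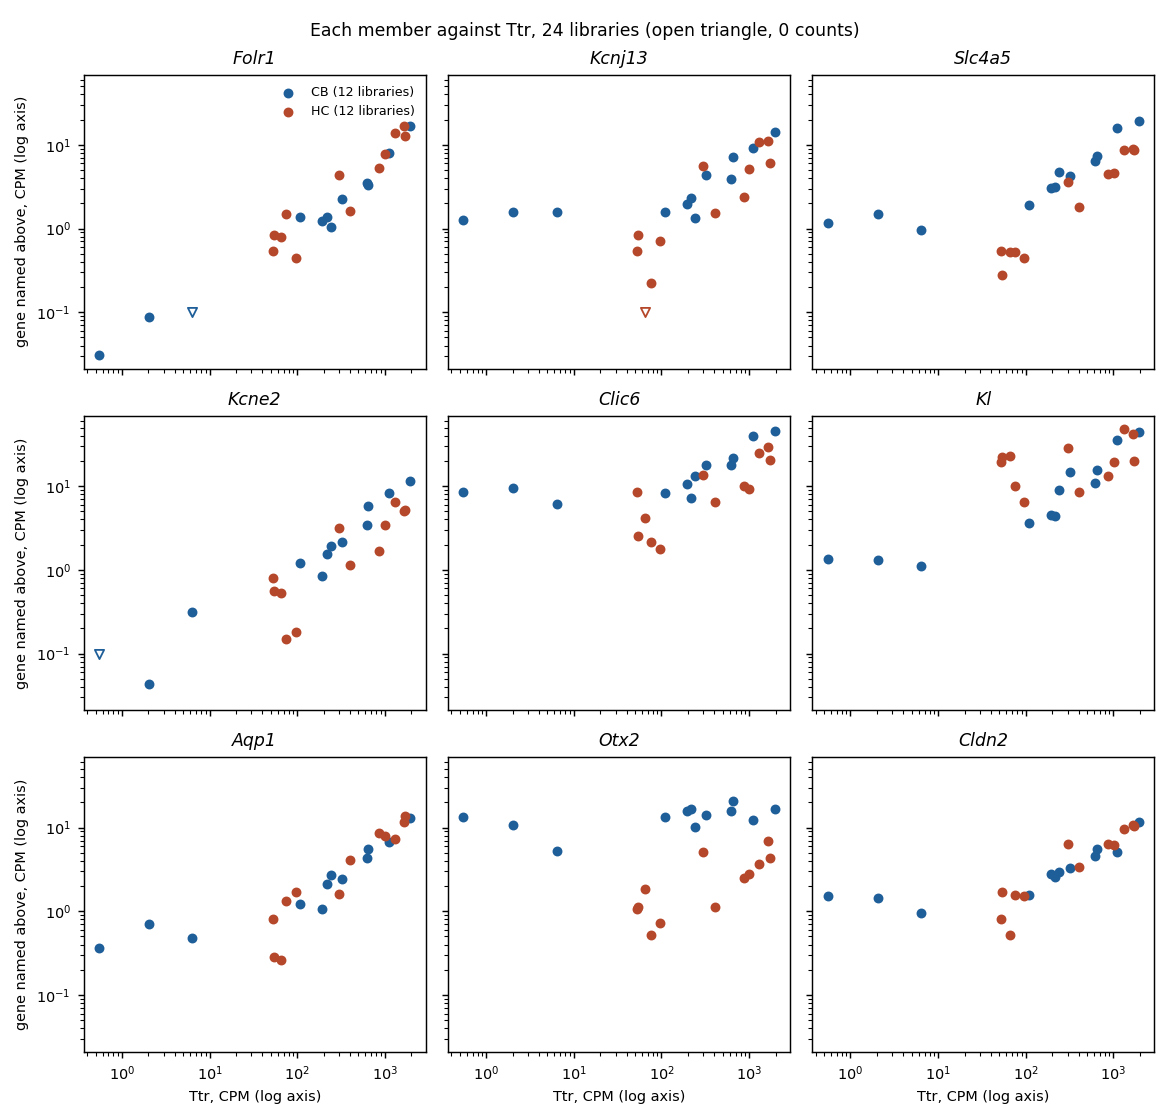
CPM of each of the other 9 genes (y, log axis) against CPM of *Ttr* (x, log axis) in 24 libraries, with the CB in blue, the HC in red and 0 counts as open triangles. *Folr1* and *Kcne2* fall with *Ttr* down to 0 to 2 counts, *Otx2* stays between 5.24 and 20.7 CPM in the CB at any level of *Ttr*, and *Kl* stays near 20 CPM in the 3 WT libraries of the P35 HC, where *Ttr* is low.

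The order of mice was also largely shared. The library with the least *Ttr* in its group was also the lowest in *Kl* in 8 of 8 groups, and in each other member in 6 or 7 of 8. The full order of the 3 libraries was that of *Ttr* in 7 groups for *Kl* and *Cldn2* and in 6 groups for each of the other 7 genes.

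The genes that resembled *Ttr* most apart from the members were again largely known choroid plexus genes. *Sostdc1*, a secreted inhibitor of BMP and Wnt signals, ranked second with r = 0.95. *Car12*, a carbonic anhydrase, followed with 0.92 and *Tmem72* with 0.90. Of the 15 closest genes outside the 10, 9 were on a list of 30 further choroid plexus genes (29 of them counted), 6 on no list and 0 on the list of 10 ependymal markers. Among the 6 were *Ccdc135* and *Rsph4a*, genes of motile cilia. At r of at least 0.8 stood 25 genes in all, and 0 genes had r of -0.8 or less. Among the 25 were 6 members, 10 of the further choroid plexus genes and 1 ependymal marker, *Foxj1*, with r = 0.81. The list of further choroid plexus genes held 27 of the 15954 genes in the order. It was chosen with earlier results of these data known, so the overlap is a description and no independent support.

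In the 3 CB libraries nearly without *Ttr* the members parted. *Folr1* had 2, 1 and 0 counts in library 3, library 5 and M27, and *Kcne2* had 1, 0 and 2. *Otx2* kept 250, 440 and 33 counts in the same libraries, or 10.9, 13.4 and 5.24 CPM. Relative to the library with the most *Ttr* in the same group, these were 68.2, 64.9 and 31.8% of its *Otx2*, whereas *Ttr* was at 0.328, 0.0847 and 0.325%.
*Clic6* kept 53.2, 38.9 and 13.6%, and *Kcnj13* 40.1, 17.5 and 11.3%. *Kl* kept 12.1, 8.68 and 2.51% and *Aqp1* 16.0, 6.52 and 3.68%. CB libraries with hardly any *Ttr* thus still held *Otx2* and *Clic6*. In the HC, *Kl* was such a gene. In the WT P35 HC it was 22.7, 19.4 and 22.5 CPM in N10, W481 and W483, with 348 to 419 *Kl* counts per 1000 *Ttr* counts, whereas in the 16GsoT/T P35 HC there were 25.3 to 95.1.

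**Figure D3:**
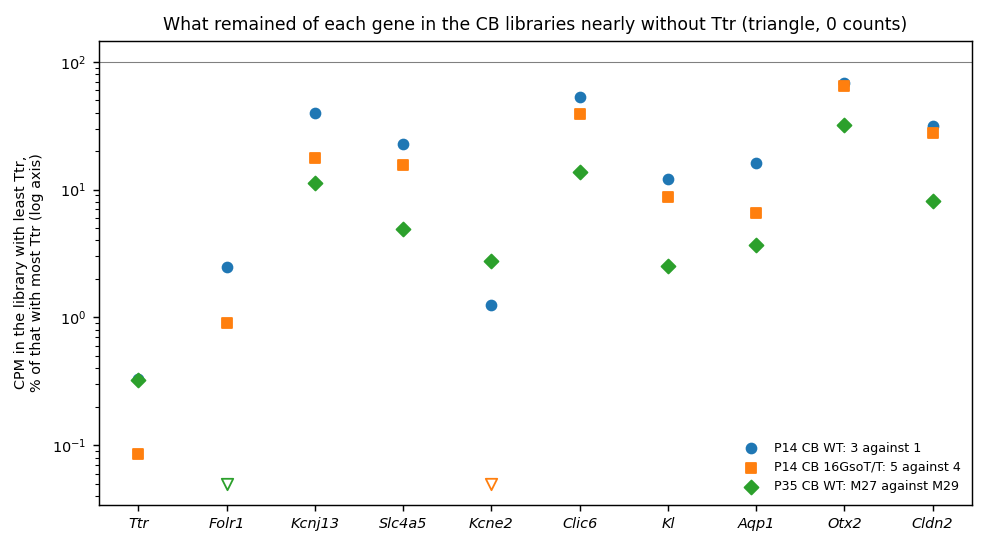
Level of each of the 10 genes in the CB library with the least *Ttr* as a percentage of that in the library with the most *Ttr* of the same group (log axis), for WT P14 (3 against 1), 16GsoT/T P14 (5 against 4) and WT P35 (M27 against M29). Triangles are 0 counts. *Ttr* is under 0.4% in each pair, and *Otx2* between 31.8 and 68.2%.

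At P14 the genotypes did not differ detectably in these genes. In the CB, 0 of the 10 members tested passed an adjusted p of 0.05 (edgeR's quasi-likelihood test with Benjamini-Hochberg adjustment over all genes), where 0.506% of all genes did. DESeq2 called 0 members too, and 0 members had an unadjusted p of at most 0.05. The log2 fold changes (16GsoT/T minus WT) lay between -0.07 and 0.69. In the HC, 0 of 10 members passed in edgeR and 0 in DESeq2, where 0.814% of all genes passed in edgeR, and 1 member, *Kl*, had an unadjusted p of at most 0.05. All 10 HC values were above 0, with a median of 0.89 against 0.00 over all genes. The log2 fold change of *Ttr* was 1.03 ± 0.96 (SE, n = 3 per group) and that of *Kl* 0.79 ± 0.31 (adjusted p = 0.234 in edgeR). The summed level of the 10 ependymal markers was 67.3 to 71.5 CPM in the 16GsoT/T P14 HC and 34.1 to 47.6 CPM in WT, and 2 of the 9 tested, the cilia genes *Ccdc153* and *Rsph1*, were called higher. Their part in the level of the members was not tested.

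In the P35 HC the members were higher in 16GsoT/T. *Folr1* was 0.784, 0.532 and 0.845 CPM in WT N10, W481 and W483 and 16.9, 4.38 and 13.8 CPM in 16GsoT/T B10, B11 and B12. *Slc4a5* was 0.523, 0.532 and 0.282 CPM against 8.93, 3.58 and 8.72 CPM. The lowest mutant, B11, was above every WT mouse in both genes.
*Cldn2* was 0.523, 0.798 and 1.69 CPM in the same WT mice and 10.6, 6.37 and 9.56 CPM in the mutants, and *Clic6* was 4.18, 8.52 and 2.53 CPM against 29.4, 13.5 and 24.7 CPM. *Kl* was less apart, with 28.7 to 47.8 CPM in the mutants against 19.4 to 22.7 CPM in WT. B11 was the lowest mutant in each of these as well, and in *Otx2* alone B12 was lower, at 3.66 CPM.

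By edgeR's quasi-likelihood test, 7 members rose in the 16GsoT/T P35 HC, where 0.135% of all 13343 genes tested were called and 0.112% were called higher. *Ttr* rose by 4.26 ± 0.45 on the log2 scale (SE, 3 against 3; adjusted p = 0.00100), or 19.2-fold. *Kcnj13* rose by 4.28 ± 0.56 (adjusted p = 0.00446), *Folr1* by 4.02 ± 0.55, *Slc4a5* by 3.93 ± 0.55 and *Cldn2* by 3.14 ± 0.44 (adjusted p = 0.00528 for each of these 3). *Kcne2* rose by 2.93 ± 0.50 (adjusted p = 0.0322) and *Clic6* by 2.17 ± 0.36 (adjusted p = 0.0277). *Otx2*, at 1.96 ± 0.44, and *Kl*, at 0.89 ± 0.19, had adjusted p = 0.146 and 0.124 in edgeR. *Aqp1* was not tested, since it reached the limit of the filter on low counts in only 2 libraries, and stood at 0.261, 0.798 and 0.282 CPM in WT and 11.6, 1.59 and 7.31 CPM in the mutants. In all 9 genes tested the groups did not overlap, as in 5.82% of all genes with the mutants higher.
Most of these genes entered the test only through the mutants: in WT, 3 libraries reached the filter's limit of 2.67 CPM for *Ttr* and *Kl*, 2 for *Clic6* and 0 for the other 7, so the count of 7 is no support beyond the single values. Of the further choroid plexus genes, *Sostdc1* rose by 2.89 ± 0.35, *Ace* by 1.52 ± 0.22 and *Enpp2* by 1.41 ± 0.19 on the log2 scale (adjusted p = 0.00339, 0.00833 and 0.00528).

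The calls in the P35 HC rested on few mice. Without B12, 1 member was called, *Ttr*, and without W481 there were 3. DESeq2 called 9 members among 46 genes in all, and with no filter on low counts 10 members were called among 134 genes. In one fit with the P35 CB, whose spread the HC then shared, 0 members were called, although the log2 fold change of *Ttr* was 4.26 there as well (adjusted p = 0.0989 in edgeR). Without any one library, the log2 fold change of *Ttr* lay between 3.83 and 4.71 and passed the test in 6 of 6 fits, and that of *Kcne2* lay between 2.70 and 3.13 and passed in 2. With the library batch as a covariate, which leaves WT N10 as the only WT mouse set against the mutants, 3 members were called, *Ttr*, *Kcnj13* and *Cldn2*. The log2 fold change of *Ttr* was then 4.09 ± 0.68, that of *Cldn2* 4.05 ± 0.74 and that of *Kcnj13* 8.07 ± 1.26, the last against 0 counts in N10. Ependymal markers summed to 52.6 to 56.5 CPM in the mutants and 41.1 to 54.0 CPM in WT, and meningeal markers to 177 to 213 and 144 to 275 CPM. Of both lists, 0 genes were called.

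**Figure D4:**
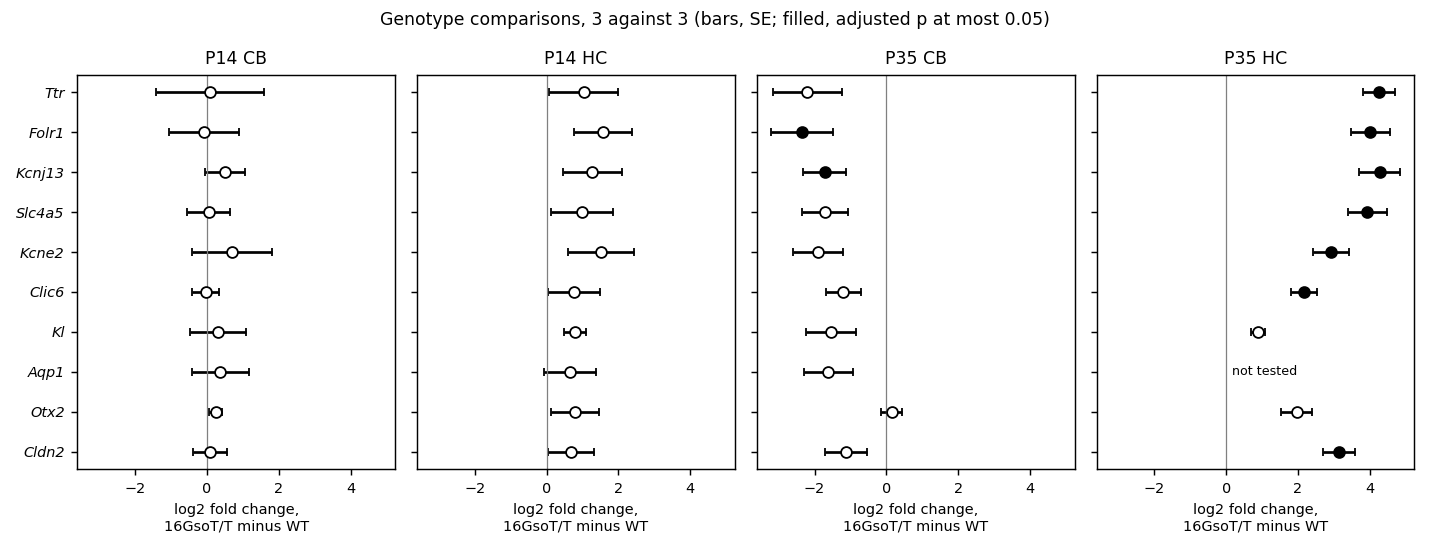
Log2 fold change (16GsoT/T minus WT) of the 10 genes in each region and age, without *Aqp1* in the P35 HC, where it was not tested, with SE bars from fits of 3 against 3 libraries and filled points where the adjusted p was at most 0.05. The values lie around 0 in the P14 CB, above 0 in the P14 HC, below 0 in the P35 CB except for *Otx2* (0.15), and between 0.89 and 4.28 for the 9 genes of the P35 HC.

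In the P35 CB most members were lower in 16GsoT/T than in 2 of the 3 WT mice, and few passed the test. *Folr1* was 0, 8.0 and 16.9 CPM in WT M27, M28 and M29 and 1.38, 2.27 and 1.04 CPM in 16GsoT/T C19, C20 and C21. *Kcnj13* was 1.59, 9.11 and 14.1 CPM against 1.56, 4.40 and 1.34 CPM. *Kl* was 1.11, 35.7 and 44.2 CPM against 3.63, 14.8 and 8.94 CPM. M28 and M29 exceeded every mutant in these 3 genes, and M27 was under every mutant in *Folr1* and *Kl*.
Of the 10 members tested 2 fell, *Folr1* by 2.35 ± 0.85 on the log2 scale (adjusted p = 0.0486) and *Kcnj13* by 1.72 ± 0.60 (adjusted p = 0.0417), in edgeR. Of all genes 35.3% were called in this comparison and 18% were called lower, so 2 of 10 is near the background. The log2 fold change of *Ttr* was -2.21 ± 0.96 (adjusted p = 0.0912) and that of *Otx2* 0.15 ± 0.29.
Without M27, 9 members were called, all but *Otx2*, with *Ttr* at -2.78. Without C19, C21, M28 or M29, 0 were called, without C20 1, and with DESeq2 0. Endothelial markers summed to 105 to 114 CPM in the 16GsoT/T P35 CB and 173 to 177 CPM in WT, with 9 of 10 called lower, and 7 of 12 meningeal markers were called lower. M27 lay with the other WT mice in the endothelial sum, and the part of these cells in the level of the members was not tested.

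The genotype effect at P35 differed between the regions. In the interaction fit of the 12 libraries (effect in the HC minus effect in the CB), 8 members passed, all higher in the HC, where 9.61% of all genes passed and 5.1% passed in this direction. The difference was 6.46 ± 1.37 for *Ttr* (adjusted p = 0.00680), 6.39 ± 1.30 for *Folr1* and 6.03 ± 1.07 for *Kcnj13* on the log2 scale. It was 2.44 ± 0.85 for *Kl* (adjusted p = 0.0791) and 1.83 ± 0.63 for *Otx2* (adjusted p = 0.0742), which did not pass. The count was 8 without any one library but M27 and 10 without M27. Most members entered this fit through groups other than the WT HC, so the count of 8 is no support beyond the single values. The groups of different regions also differed in sequencing lane and depth, which cannot be told apart from region here. At P14, 0 members passed in edgeR and 0 in DESeq2, where 0% of all genes passed in edgeR, and 0 members had an unadjusted p of at most 0.05.
The genotype effect was not shown to differ between ages. In the CB, 0 members passed (18.6% of all genes), with 1 at an unadjusted p of at most 0.05, and in the HC, 0 passed (0.00666% of all genes), with 4 at that level, all in edgeR. DESeq2 called 0 members in both. The difference (P35 minus P14) was 3.23 ± 1.22 for *Ttr* in the HC (adjusted p = 0.357) and -2.28 ± 2.08 in the CB (adjusted p = 0.483).

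Between regions, *Otx2* was the member with a steady difference. The regions also differed in sequencing lane and depth, and an effect of these cannot be told apart from one of region. In WT at P14 it was 15.9, 15.6 and 10.9 CPM in the CB and 1.14, 2.49 and 0.719 CPM in the HC. Its log2 fold change (HC minus CB) was -3.26 ± 0.31 (SE, 3 against 3) in WT at P14 (adjusted p = 4.36e-06), -2.74 ± 0.44 in 16GsoT/T at P14 (adjusted p = 0.000355), -2.99 ± 0.50 in WT at P35 (adjusted p = 0.000204) and -1.19 ± 0.26 in 16GsoT/T at P35 (adjusted p = 0.00193), by edgeR's quasi-likelihood test. The regions did not overlap in *Otx2* in any of the 4 comparisons. These comparisons called much of the genome: 77.2, 74.7, 56 and 52.3% of all genes in that order.
At P14 the only other member to pass was *Clic6* in WT, lower in the HC with a log2 fold change of -1.02 ± 0.42 (adjusted p = 0.0486), so that 2 members passed in WT and 1 in 16GsoT/T. *Clic6* was not called by DESeq2 (1 member in all), with DESeq2's size factors, or without CB mouse 1 or 2 or HC mouse N4 or N6. The count was 1 without CB mouse 2 or HC mouse N4 and 3 without CB mouse 1, and in 16GsoT/T 4 were called without CB mouse 4 or HC mouse A18. At P35 in WT, *Ttr* was lower in the HC, with a log2 fold change of -4.10 ± 1.07 (adjusted p = 0.00563), and so was *Clic6*, with -2.51 ± 0.64 (adjusted p = 0.00460). With *Otx2* these were the 3 called of 4 tested (27.5% of all genes were called lower), and the other 6 members were too low in most of the 6 libraries to be tested. In *Ttr* the CB mouse M27, at 6.35 CPM, lay under every WT HC mouse (52.7 to 65.3 CPM), against the direction of the call. Without M27 10 members were called, without N10, W481 or W483 9, 7 or 8, and with DESeq2 8.
At P35 in 16GsoT/T, *Ttr* and *Clic6* were higher in the HC, opposite to WT. All 10 members passed, 9 of them higher in the HC, as were 26.5% of all genes, and *Otx2* lower. The regions overlapped in *Ttr*, *Slc4a5*, *Clic6* and *Aqp1*. In *Ttr*, HC mouse B11 was at 301 CPM and CB mouse C20 at 321 CPM. *Folr1*, *Kcnj13* and *Kcne2* reached the filter's limit of 1.98 CPM in 3 HC libraries and in only 1 CB library. They entered the test through the HC, so the count is no support beyond the single values. Without any one library, *Slc4a5* and *Clic6* each passed in only 2 of 6 fits. *Folr1* was higher by 2.97 ± 0.44, *Ttr* by 2.33 ± 0.49, *Kl* by 2.14 ± 0.33 and *Slc4a5* by 1.03 ± 0.38 (adjusted p = 9.64e-05, 0.00136, 0.000129 and 0.0350).

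Among the cells next to the plexus, ependymal genes came closest to *Ttr*, and stromal, endothelial and neuronal genes did not follow it. Across the 24 libraries the median r with *Ttr* (group means subtracted) was 0.69 over 27 further choroid plexus genes and 0.86 over the 9 other members. It was 0.62 over 9 ependymal genes, -0.01 over 12 meningeal and stromal genes and -0.05 over 10 endothelial genes. The ion transport genes that the plexus shares with other brain cells had a median of 0.11 over 10 genes. Median values for neurons were 0.04 for CB markers, 0.12 for HC markers and 0.01 for markers of the thalamus and habenula.
Of the further choroid plexus genes, 8 were called lower and 1 higher among 18 tested in the P35 CB, 3 were called higher among 17 tested in the P35 HC, and 0 were called in either region at P14. Of all genes, 35.3% were called in the P35 CB, 18% of all genes as lower, and 0.135% were called in the P35 HC. *Prlr*, the prolactin receptor, fell by 2.59 ± 0.67 in the P35 CB (adjusted p = 0.00963), and *Car12* by 1.71 ± 0.60 (adjusted p = 0.0422), both by edgeR. The regional markers went with the labels: the CB neuron list summed to 4750 CPM or more in the CB and at most 338 CPM in the HC.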

How the data were processed

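RNA from dissected CB and HC was sequenced in 24 libraries. The authors mapped reads with TopHat2 2.0.8 to NCBIM37, counted reads per gene with HTSeq 0.6.1 and deposited raw counts, 1 table for each age, with CASAVA 1.8.2, edgeR 3.2.4 and R 3.0.0 also named in the submitters' processing notes. The labels name a TruSeq kit and the study's methods a KAPA kit. The annotation and the strand option are not given in the sources used here. The tables' summary lines, which name no gene, held 31.9 to 62.4% of the reads of a library and were left out. No column of values was left unused (0). Groups came from the labels. The replicates are different mice by their names, except in the P14 CB, where the labels give numbers only; p-values measure the spread between these samples.

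Counts were scaled by TMM and tested with the quasi-likelihood test of edgeR 4.0.16 in R 4.3.3, after filterByExpr (minimum count 10, minimum total 15), with Benjamini-Hochberg adjustment over all genes tested and a threshold of 0.05. Genotypes and regions were compared in 6 libraries and interactions in 12. The method was tested on simulated data. Log2 CPM used a prior count of 2. Exon lengths and positions came from GENCODE vM1, in which all 10 members had one position. Alternatives were DESeq2 1.42.0, its size factors, no filter on low counts, each library left out, one fit of 12 libraries, and the library batch as a covariate. Genes were named by rule: all 10 members, the 15 other genes most like *Ttr*, and at most 4 called genes with the largest change per marker list and comparison. *Gigyf2* was named for its overlap with *Kcnj13*. The members, lists and tests were chosen with earlier results of these data known. Of the further choroid plexus genes, 29 of 30 were in the tables.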

Additional observations from a re-analysis of the deposited data

Results flagged for a closer look

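The genotype effect at P35 differed between the CB and the HC, by the test of the interaction itself, in 8 members, always with the higher effect in the HC. On the log2 scale, with edgeR, the difference was 6.46 for *Ttr*, 6.39 for *Folr1*, 6.03 for *Kcnj13*, 5.68 for *Slc4a5*, 5.58 for *Aqp1*, 4.86 for *Kcne2*, 4.29 for *Cldn2* and 3.39 for *Clic6*, with adjusted p from 0.00204 to 0.0121. The differences rest on WT HC libraries with 191, 198 and 250 *Ttr* counts and on a WT CB group in which M27 held 40 *Ttr* counts and M28 and M29 held 9005 and 10417. Without M27 the count of members was 10. Most members entered the fit through groups other than the WT HC, so the count is no support beyond the single values. The regions also differed in sequencing lane and depth. The part of lane and depth, of the dissection, of the number of epithelial cells and of their expression in these values was not tested.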

How the results depend on the processing

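With 3 libraries per group, most counts of called members depended on single libraries. Leaving out 1 library at a time, the number of members called lay between 0 and 9 in the P35 CB, against 2 in the full fit. It was 0 there with DESeq2, 8 with no filter on low counts and 4 in one fit of the 12 libraries of the age. In the P35 HC it lay between 1 and 9, against 7 in the full fit. It was 9 there with DESeq2, 10 with no filter and 0 in the fit of 12 libraries. At P14 it was 0 throughout in both regions. For HC against CB it lay between 1 and 3 in WT at P14 (1 with DESeq2 or with its size factors, against 2), 1 and 4 in 16GsoT/T at P14 (2 with no filter, against 1), 3 and 10 in WT at P35 (8 with DESeq2, 9 with no filter, against 3) and 7 and 10 in 16GsoT/T at P35. For the interactions it was 8 to 10 (genotype with region, P35) and 0 to 1 (genotype with age, CB), and 0 for the other 2. The cause of these shifts was not tested. In the P35 HC, WT counts of 6 members were at most 6 per library, which limits how well their levels are known.

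Fold changes that turned sign when a library was left out were not called in the full fits. In the P14 CB they spanned -1.32 to 1.55 (*Ttr*), -1.18 to 1.16 (*Folr1*), -0.47 to 1.01 (*Kcnj13*), -0.79 to 0.75 (*Slc4a5*), -0.90 to 2.31 (*Kcne2*), -0.71 to 0.30 (*Clic6*), -0.96 to 1.23 (*Kl*), -0.71 to 1.58 (*Aqp1*), -0.55 to 0.57 (*Cldn2*). In the P35 CB it was -0.18 to 0.47 (*Otx2*), and in the P14 HC -0.12 to 1.34 (*Clic6*), -0.073 to 1.39 (*Aqp1*). For HC against CB they spanned -0.12 to 2.22 (*Ttr*), -0.71 to 1.77 (*Folr1*), -1.21 to 1.02 (*Kcne2*), -0.28 to 0.83 (*Cldn2*) in WT at P14, -0.43 to 1.05 (*Kcnj13*), -0.62 to 1.07 (*Slc4a5*), -0.49 to 1.82 (*Kcne2*), -1.13 to 0.43 (*Clic6*) in 16GsoT/T at P14 and -0.83 to 0.22 (*Kl*) in WT at P35. Of 243 other values of the likeness to *Ttr*, 237 moved by less than 0.1. No paired analysis was possible because the labels give no replicate number that the genotypes share.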

Other observations

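At the extremes of the 24 libraries, the amount of *Ttr* did not go with one genotype. The 3 highest were M29 (WT, P35 CB), A14 (16GsoT/T, P14 HC) and B10 (16GsoT/T, P35 HC), at 1952, 1714 and 1658 CPM. The 3 lowest were M27 and 3 (WT) and 5 (16GsoT/T), all from the CB. Within the P35 HC the genotypes were apart, with 52.7 to 65.3 CPM in WT and 301 to 1658 CPM in 16GsoT/T. The share of reads on genes that *Ttr* alone took ran from 5.46e-05% in library 5 to 0.203% in M29.

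*Ccdc135* and *Rsph4a*, genes of motile cilia that were on none of the lists used here, ranked 7 and 12 in likeness, with r = 0.90 and 0.86 over 24 libraries. In the HC alone r was 0.79 and 0.45, and in the CB alone 0.91 and 0.92.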
